A study of Mus musculus with 24 samples.

Results

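Mouse vibrissa follicles cultured with panthenyl ethyl ether plus pyridoxine hydrochloride (PEE-PH) were compared with follicles cultured with panthenyl ethyl ether plus tocopherol acetate (PEE-TA). The members were chosen by sample title, 3 arrays in each group, and they are 6 of the 24 arrays of the series. PEE-PH medium held 0.3% PEE and 0.015% PH, and PEE-TA medium held 0.3% PEE and 0.024% TA, so PEE was common to both groups and only its partner vitamin was exchanged. Follicles came from B6C3F1 mice at postnatal day 9 and were kept for 24 hours in RPMI 1640 medium with 10% fetal bovine serum. Each array read total RNA of 10 follicles on a one-colour Agilent array, and the 3 arrays of a group came from independent experiments. The other groups, also of 3 arrays, were an untreated control, PH, TA and PEE alone, PH-TA, and all 3 compounds together (PEE-PH-TA), at the same doses. The labels do not say whether the follicles of 1 sample came from 1 mouse or several.

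PH is a salt of vitamin B6, which cells convert to pyridoxal phosphate, the cofactor of transaminases, decarboxylases and other enzymes of amino acid metabolism. TA is an ester of vitamin E, a lipid-soluble antioxidant that breaks chains of lipid peroxidation. PEE is a derivative of panthenol, the alcohol form of pantothenic acid, from which coenzyme A is built. The vibrissa follicle is a large sensory hair follicle in which matrix cells divide and differentiate into a keratinised shaft and its root sheaths around a dermal papilla. The study's title places these vitamins in hair shaft elongation through placental growth factor and VEGFR-1, which Pgf and Flt1 encode.

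The follicle identity of the arrays was clear. Levels are given throughout as log2 of the processed signal relative to the 75th percentile of the same array, so 0 is the brightness of that percentile and a level is compared only with the same probe on other arrays. All 16 hair shaft keratins on the list were measured, and the inner root sheath keratin Krt71 lay between 8.94 and 9.14 on all 6 arrays. Signal at the 75th percentile was 7.64 to 7.76 (log2) in PEE-PH and 7.47 to 7.64 in PEE-TA, before scaling. After scaling, arrays of PEE-PH correlated at 0.994 to 0.996 with each other across genes, arrays of PEE-TA at 0.993 to 0.994, and arrays of one group with those of the other at 0.992 to 0.995. Correlations between and within the groups thus covered nearly the same range.

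Exchanging the partner vitamin was accompanied by few differences. Of 22065 genes and transcripts tested, 1 was higher and 2 were lower in PEE-PH than in PEE-TA at an adjusted p under 0.05, which is 0.0136% (limma with Benjamini-Hochberg adjustment over all features). The lower ones were Rbp7 and G0s2, and the higher one was a probe with no gene name, A_55_P2544441. At an unadjusted p under 0.05 there were 1694 features, or 7.68%, and the median difference over all features was -0.008 (log2). The 95% interval of the difference lay within 2-fold either way for 93.1% of features and within 1.5-fold for 75.1%, with a median half-width of 0.25 (log2). For most features a difference larger than 2-fold was thus outside the interval, and for the rest the interval reached past it.

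**Figure D1:**
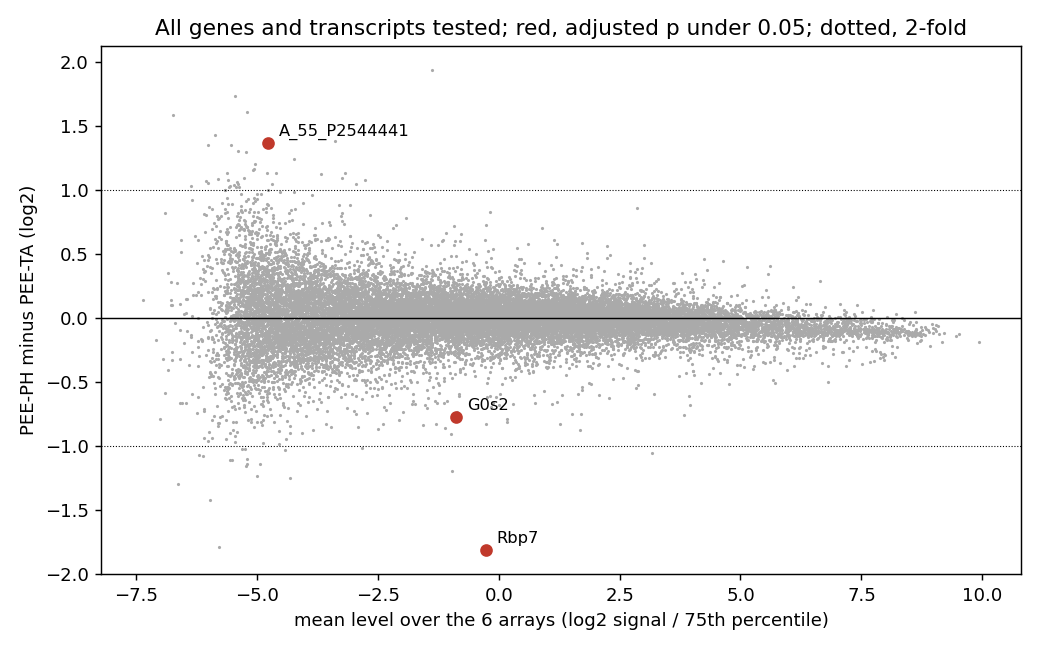
Difference between PEE-PH and PEE-TA (log2, vertical) against the mean level over the 6 arrays (log2 signal relative to the 75th percentile, horizontal) for the 22065 features tested. Red points are the 3 features with an adjusted p under 0.05, and the dotted lines mark 2-fold; 58 features, or 0.263%, lie at or beyond them.

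Rbp7 and G0s2 showed the same arrangement over the 8 groups, so the stretches in front of their start sites are shown for inspection. Rbp7 encodes a cellular retinol-binding protein of the fatty acid-binding protein family, and G0s2 encodes an inhibitor of adipose triglyceride lipase, the enzyme that opens lipolysis. Both sequences are the 250 bases before the annotated start, 5′ to 3′ on the gene's own strand, from RefSeq on GRCm38.p6; both genes matched by symbol. Rbp7 lies at chr4:149454969-149455218 and G0s2 at chr1:193273189-193273438, both on the minus strand, and capitals mark GGTCA.
Rbp7: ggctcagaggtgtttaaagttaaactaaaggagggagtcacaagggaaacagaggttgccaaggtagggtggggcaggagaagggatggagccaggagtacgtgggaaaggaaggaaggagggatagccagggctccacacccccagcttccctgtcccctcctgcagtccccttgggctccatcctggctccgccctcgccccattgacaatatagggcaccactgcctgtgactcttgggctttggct
G0s2: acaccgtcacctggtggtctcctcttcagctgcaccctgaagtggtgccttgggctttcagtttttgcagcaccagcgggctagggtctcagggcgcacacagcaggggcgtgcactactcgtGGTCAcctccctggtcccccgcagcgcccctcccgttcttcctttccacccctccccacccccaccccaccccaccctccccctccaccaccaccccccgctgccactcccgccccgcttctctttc
The hexamer AGGTCA, the half-site shared by many nuclear receptors, was searched on both strands and is in neither window, while 14% of the 32851 promoters of the table hold it. Its last 5 letters, GGTCA, which lie inside every AGGTCA, occur 1 time in the G0s2 window and not in that of Rbp7; 35.2% of promoters hold them. These matches describe letters in a window and nothing of a factor.

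Rbp7 was lower in PEE-PH than in PEE-TA on every array. Its levels were -1.41, -1.29 and -0.81 in PEE-PH and 0.71, 0.45 and 0.77 in PEE-TA (mean -1.17 ± 0.32 against 0.64 ± 0.17, SD, n = 3 each). All 3 PEE-PH arrays lay more than 1 log2 unit below all PEE-TA arrays. The difference was -1.81 ± 0.23 (SE), a 3.52-fold lower level, with a 95% interval of -2.31 to -1.32 and a limma adjusted p of 0.00774. Within replicate numbers 1, 2 and 3 it was -2.12, -1.74 and -1.58. The probe (mm9 chr4:148823870-148823929) was well above background on all 24 arrays and is the only one for this gene. The call was lost without PEE-PH replicate 1 (adjusted p = 0.0995), without PEE-TA replicate 1 (0.0763), without replicate number 1 or 2 in all groups (0.446 and 0.392), and in a fit of the 6 arrays alone (0.333); the difference was then between -1.85 and -1.66.

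The other groups showed a low Rbp7 level wherever the medium held PH. It lay between -1.42 and -0.40 on the 12 arrays whose medium held PH and between 0.45 and 1.85 on the 12 arrays whose medium did not, with no overlap. With PH alone its levels were -0.90, -0.97 and -0.77, and with TA alone 0.63, 0.78 and 1.31. PH minus TA without PEE was -1.79 ± 0.23 (SE; limma adjusted p = 0.00472), in arrays that share none with PEE-PH or PEE-TA. The swap with PEE minus the swap without PEE was -0.03, with a 95% interval of -0.72 to 0.67, an interval that spans changes in either direction. Against PEE alone, whose arrays serve both comparisons, Rbp7 fell by 2.53 (log2) in PEE-PH (limma adjusted p = 2.19e-06) and by 0.71 in PEE-TA (adjusted p = 0.0346).

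G0s2 was also lower in PEE-PH, by a smaller amount and with tighter replicates. Its levels were -1.28, -1.27 and -1.26 in PEE-PH and -0.49, -0.44 and -0.55 in PEE-TA. The 3 PEE-PH arrays were nearly equal and all below PEE-TA. The difference was -0.78 ± 0.12 (SE), a 1.71-fold lower level, with a 95% interval of -1.03 to -0.52 and a limma adjusted p of 0.0296; within replicate numbers it was -0.79, -0.83 and -0.71. The call was lost when any of the 6 arrays was left out, with adjusted p from 0.0672 (without PEE-TA replicate 3) to 0.212 (without PEE-TA replicate 2) and a difference of -0.80 to -0.75. Leaving out a replicate number from all groups also ended it (adjusted p 0.356, 0.748 and 0.389 for numbers 1, 2 and 3). So did fitting the 6 arrays alone (0.253) or adding the replicate number, whose arrays share a scan date, as a block (0.0666). With the array signal as a covariate, an alternative chosen after seeing the data, the difference was -0.71 (adjusted p = 0.172).

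Over all groups G0s2 followed PH as Rbp7 did. It lay between -1.51 and -1.05 on the 12 arrays with PH and between -0.91 and -0.44 on the 12 without, again with no overlap. PH minus TA without PEE was -0.62 ± 0.12 (SE), with a limma adjusted p of 0.0601. Against PEE alone the difference was -0.57 in PEE-PH (adjusted p = 0.00145) and 0.20 in PEE-TA (adjusted p = 0.239). The G0s2 probe (mm9 chr1:195098925-195098984), like that of Rbp7, was well above background on all 24 arrays and is the only one for the gene.

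These are bulk arrays, in which fewer cells of a type and less RNA per cell cannot be told apart, so markers of cell types in which these genes are known are given beside them. Of 10 adipocyte genes 9 were measured, 7 of them well above background on all 24 arrays; their summed linear level, relative to the 75th percentile, was 22.3 to 32.4 in PEE-PH and 28.5 to 34.9 in PEE-TA. The same sum was 29.8 to 31.7 with PH alone and 29.6 to 31.6 with TA alone. Of the 9 genes 8 were lower in PEE-PH, with a median of -0.32, 0 calls and none whose groups did not overlap. Of all features 7.29% were higher and 7.39% lower without overlap. Within replicate numbers 1, 2 and 3 the median of the adipocyte genes was -0.61, -0.10 and -0.12. Adiponectin (Adipoq) was at -3.72, -0.94 and -4.12 in PEE-PH and -2.18, -0.70 and -3.30 in PEE-TA. Its level varied more between replicate numbers than between groups, and was lower in PEE-PH within each number. All 15 endothelial genes were well above background on all arrays, with summed levels of 81.3 to 94.4 in PEE-PH and 80.9 to 95.2 in PEE-TA. The part of cell makeup in the Rbp7 and G0s2 differences was not tested, and these sums are descriptions only.

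The third feature, A_55_P2544441, was higher in PEE-PH. It is a 60-base probe at mm9 chr6:30754356-30754415 that the array design gives no gene, and its sequence is printed because it is the only identity the feature has.
A_55_P2544441: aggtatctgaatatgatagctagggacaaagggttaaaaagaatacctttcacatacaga
Its levels were -4.02, -4.23 and -4.02 in PEE-PH and -5.71, -5.13 and -5.53 in PEE-TA, and the groups did not overlap. The difference was 1.37 ± 0.19 (SE) with a limma adjusted p of 0.00882. Only 1 of the 3 PEE-TA arrays was well above background, so its size is uncertain and no fold is given. Under normexp background correction with an offset of 50 it was 0.08 (adjusted p = 0.657). The call was also lost without PEE-PH replicate 1 (adjusted p = 0.0995), PEE-PH replicate 3 (0.0935), PEE-TA replicate 1 (0.0763), replicate number 1 (0.568) or 3 (0.266) of all groups, and in the 6 arrays alone (0.431). Unlike the other 2 features it was low with TA: the 6 arrays with TA and no PH lay between -5.71 and -5.11 and the other 18 between -5.03 and -3.86. Against PEE alone the difference was 0.25 in PEE-PH (adjusted p = 0.323) and -1.12 in PEE-TA (adjusted p = 0.000456).

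**Figure D2:**
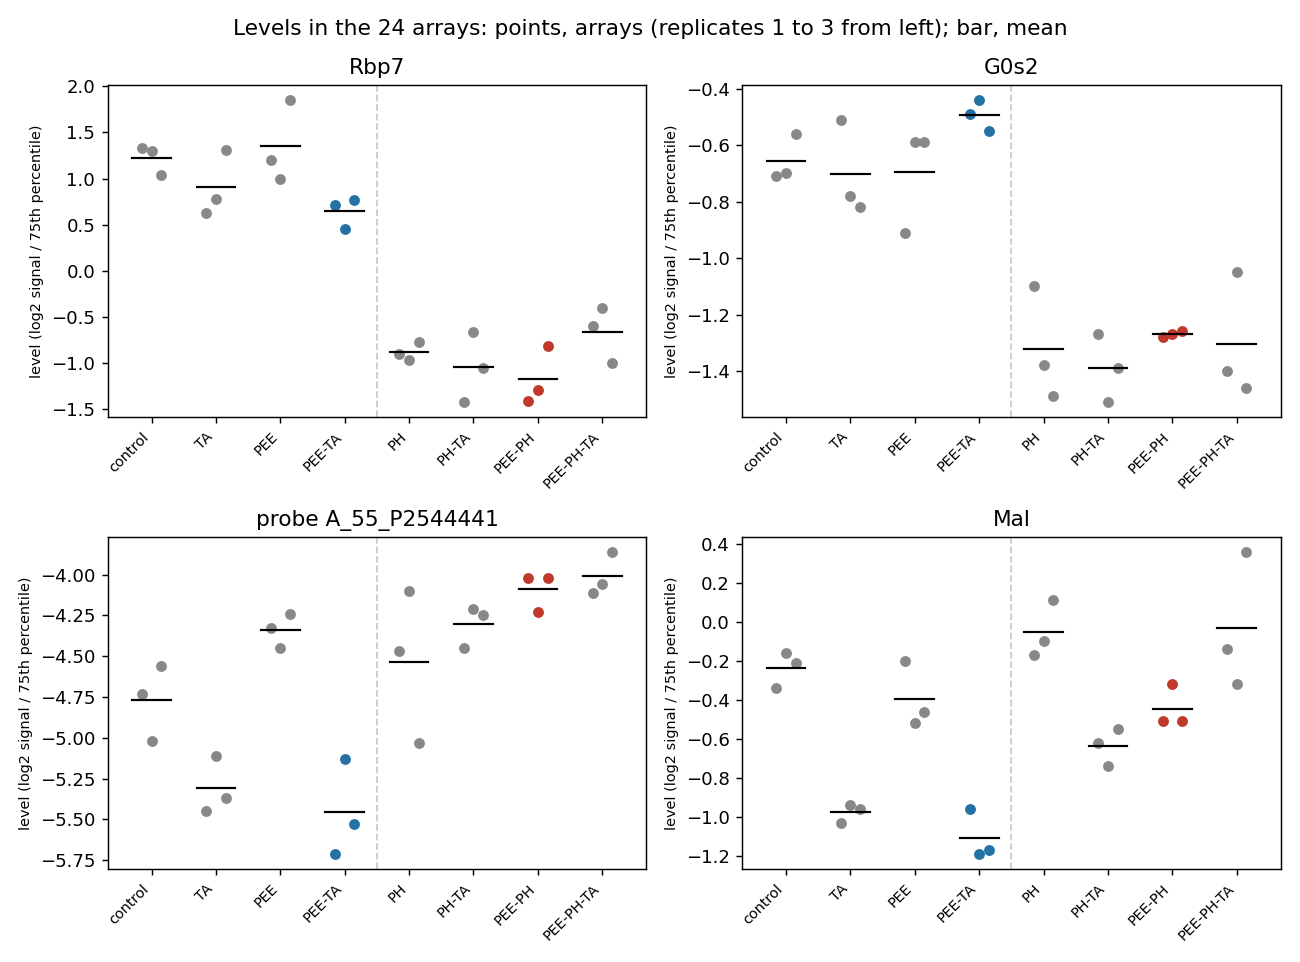
Levels of Rbp7, G0s2, probe A_55_P2544441 and Mal (log2 signal relative to the array's 75th percentile) on the 24 arrays by group, with replicates 1 to 3 from left to right and the group mean as a bar; PEE-PH is red, PEE-TA blue, and groups right of the dashed line held PH. Rbp7 and G0s2 are low in every group with PH, while the probe and Mal are low in PEE-TA and TA.

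No gene with a proper symbol passed the threshold upward, so by rule the 6 genes with the smallest p in each direction are given as values. The 6 higher in PEE-PH were Fbxo2, Slc7a3, Zfp184, Mal, Dnaaf3 and Miga1, and the 6 lower were Rbp7, G0s2, Atf5, Pde1b, Mcf2l and Xkr5. Their adjusted p, apart from Rbp7 and G0s2, ran from 0.0527 to 0.155, so none of these 10 is a call. All 12 had groups that did not overlap, which 7.29% of all features showed in the higher direction and 7.39% in the lower one; since small p chose them, this count adds nothing. Their differences without PEE come from arrays that did not choose them, but the fit gives both comparisons the same standard error for a gene, so genes with a small p here also tend to have small errors there.

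In PH against TA without PEE, all 12 genes had the same sign as with PEE. Of these, 5 passed the threshold there, namely Rbp7, Pde1b, Mcf2l, Mal and Dnaaf3, against 13 of 22065 features, or 0.0589%, over all features. That count is a description, because of the shared error. None of the 13 calls of that comparison remained when any replicate number was left out. The interaction test, the swap with PEE minus the swap without, called 0% of features (0 of 22065; limma, 634 features or 2.87% at an unadjusted p under 0.05). Among the 12 genes none had an unadjusted interaction p under 0.05. For A_55_P2544441 the swap was 0.77 ± 0.19 (SE) without PEE (adjusted p = 0.114) and the interaction 0.59, with an unadjusted limma p of 0.0376.

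**Figure D3:**
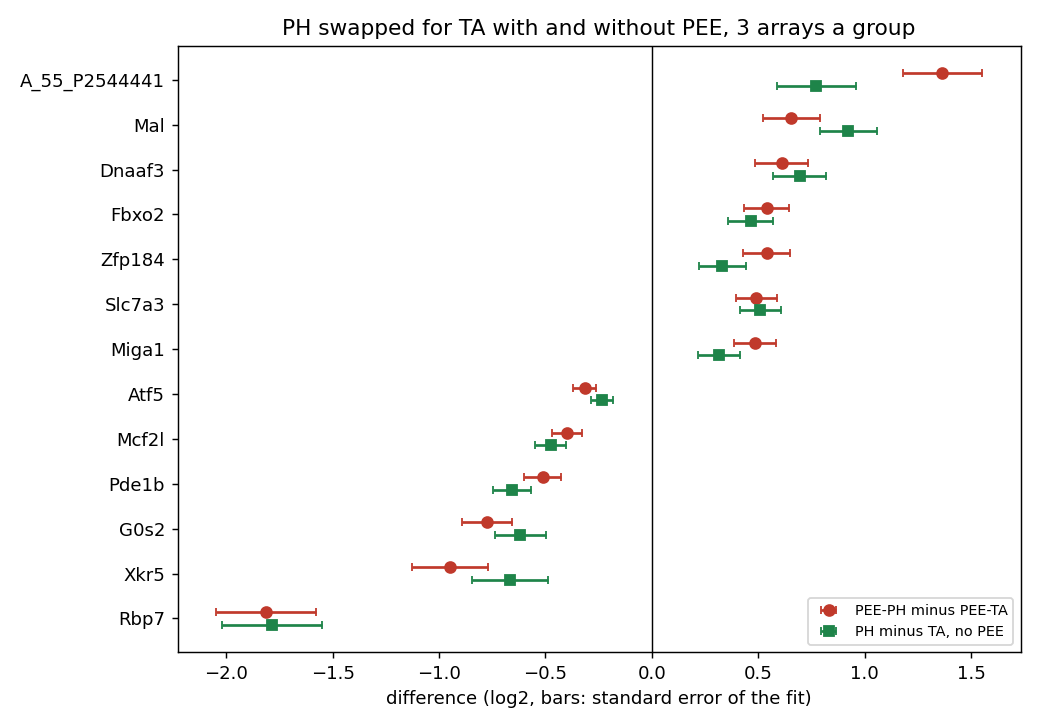
PH minus TA for the 12 ranked genes and probe A_55_P2544441, with PEE (red circles) and without PEE (green squares), in log2; bars are the standard error of the limma fit with 3 arrays a group. All 13 features lie on the same side of 0 in both comparisons, which share no array.

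Among the lower genes, Atf5, a stress-responsive bZIP transcription factor, had levels of 6.10, 6.01 and 6.04 in PEE-PH and 6.30, 6.38 and 6.41 in PEE-TA. The groups were separated by more than their spread, but the difference was small, -0.32 ± 0.05 (SE; limma adjusted p = 0.0527). It passed the threshold under normexp correction (0.0464), with a trended and robust prior (0.0138) and with the filter on these groups only (0.0496), and was -0.23 (0.339) after quantile normalization. Against PEE alone Atf5 fell by 0.55 in PEE-PH (adjusted p = 2.46e-06) and by 0.23 in PEE-TA (0.00375).

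Pde1b, a calmodulin-dependent phosphodiesterase of cyclic nucleotides, was at -0.11, -0.38 and -0.09 in PEE-PH and 0.38, 0.36 and 0.22 in PEE-TA. The difference was -0.51 ± 0.09 (SE; limma adjusted p = 0.0704) with PEE and -0.66 ± 0.09 without (adjusted p = 0.00472). Mcf2l, a guanine nucleotide exchange factor, was at 0.17, 0.11 and 0.20 in PEE-PH and 0.45, 0.57 and 0.65 in PEE-TA. Mcf2l held 0.01 to 0.30 on the 12 arrays with PH and 0.45 to 0.75 on the 12 without, so it had the arrangement of Rbp7 at a smaller size; its 4 tested probes differed by -0.46 to -0.11. Xkr5, of the XK-related family of membrane proteins, was at -4.72, -5.09 and -4.82 against -3.71, -4.06 and -4.01, but its other tested probe differed by only -0.05. The Xkr5 value therefore rests on 1 probe.

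Among the higher genes, Mal, a proteolipid of membrane rafts, was at -0.51, -0.32 and -0.51 in PEE-PH and -0.96, -1.19 and -1.17 in PEE-TA. The difference was 0.66 ± 0.13 (SE; limma adjusted p = 0.155), and without PEE it was 0.92 ± 0.13 (adjusted p = 0.00849). Mal was lowest where TA was given without PH, at -1.19 to -0.94 on 6 arrays, against -0.74 to 0.36 on the other 18. Beside PEE alone it differed by -0.71 in PEE-TA (limma adjusted p = 0.00112) and by -0.05 in PEE-PH (adjusted p = 0.778). The same PEE arrays serve both comparisons, and to which vitamin the difference between the pairs belongs was not tested.

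Dnaaf3, which takes part in assembling axonemal dynein arms, was at -0.83, -0.97 and -0.75 in PEE-PH and -1.55, -1.40 and -1.42 in PEE-TA. Fbxo2, an F-box protein that recognises N-glycans on misfolded glycoproteins, was at 0.22, 0.07 and 0.16 against -0.53, -0.43 and -0.20. Slc7a3, a transporter of cationic amino acids such as arginine, was at -2.56, -2.58 and -2.68 against -3.18, -3.04 and -3.07. In each of these 3 genes the arrays of PEE-PH lay above all of PEE-TA, with differences of 0.61, 0.54 and 0.49 (log2). The zinc finger gene Zfp184 differed by 0.54 and Miga1, a factor of mitochondrial fusion, by 0.48; a second Miga1 probe differed by -0.19, in the opposite direction. On the 12 arrays with PH, Zfp184 lay between -2.86 and -2.23 and Miga1 between -1.04 and -0.51. On the 12 without, they lay between -3.46 and -2.89 and between -1.49 and -1.08, so the ranges nearly met. The PEE-PH and PEE-TA arrays that chose these genes are among these arrays. How many of all features are separated in this way is not given, here or for Rbp7, G0s2 and Mcf2l.

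Genes that handle vitamin B6 were measured to see whether they differed when PH replaced TA, and none of 46 passed the threshold. Of the 46, 25 were higher and 21 lower in PEE-PH, with a median of 0.03 against -0.008 over all features; groups did not overlap for 6 higher and 5 lower (13.0% and 10.9%, against 7.29% and 7.39% of all features). The kinase that makes pyridoxal phosphate, Pdxk, was at 2.56, 2.37 and 2.41 in PEE-PH and 2.35, 2.48 and 2.36 in PEE-TA, and the groups overlapped. Its difference was 0.05, with a 95% interval of -0.10 to 0.20. The phosphatase Pdxp differed by 0.05 (-0.13 to 0.23) and the pyridoxal phosphate-binding protein Plpbp by 0.07 (-0.07 to 0.20). For the probes that stand for these 3 genes the intervals leave out any difference of 1.5-fold or more; a second Pdxk probe differed by -0.19.

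The smallest p in the vitamin B6 list belonged to Abat, the transaminase of the neurotransmitter GABA, at -0.47, -0.64 and -0.67 in PEE-PH and -1.49, -1.13 and -0.96 in PEE-TA. Its difference was 0.60 ± 0.16 (SE; limma adjusted p = 0.312), but the other tested Abat probe differed by -0.18. Bcat1, a transaminase of branched-chain amino acids, was at 0.17, 0.32 and 0.17 against 0.74, 0.51 and 0.60, a difference of -0.39 (adjusted p = 0.362); its 4 tested probes were all lower in PEE-PH, by 0.09 to 1.09. Alpl, the phosphatase that removes phosphate from pyridoxal phosphate outside cells, was at -2.04, -2.10 and -1.97 against -2.83, -2.47 and -2.40 (difference 0.53, adjusted p = 0.371), but its other tested probe differed by 0.08. Alpl was higher than with PEE alone in both pairs, by 1.10 in PEE-PH (adjusted p = 8.57e-05) and 0.57 in PEE-TA (0.0164).

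Genes of vitamin E transport and antioxidant defence likewise gave no call among 38 measured, 14 higher and 24 lower, with a median of -0.04. Ttpa, the tocopherol transfer protein, was at -4.04, -4.18 and -4.64 in PEE-PH and -3.87, -4.79 and -4.19 in PEE-TA, and differed by -0.01 (95% interval -0.43 to 0.41). The lipoprotein receptor Scarb1 differed by 0.13 (interval -0.05 to 0.31), and Sec14l2, a tocopherol-associated protein, by -0.22 (-0.51 to 0.07). Gpx4, the peroxidase that reduces lipid hydroperoxides, was at 5.75, 5.76 and 5.80 against 6.0, 5.90 and 5.86, a difference of -0.15 (interval -0.35 to 0.04). Catalase (Cat) was at 1.60, 1.63 and 1.48 against 1.77, 1.78 and 1.71, a difference of -0.19 (limma adjusted p = 0.713). The smallest p was that of the drug efflux pump Abcb1b (0.28, adjusted p = 0.633). The 20 measured genes of pantothenate and coenzyme A had a median of 0.01 and the 41 NRF2 targets, which respond to oxidants, one of -0.04, with 0 calls in each.

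Pgf and Flt1, the ligand and receptor named by the study's title, were also without a detectable difference. Pgf was at 0.56, 0.38 and 0.29 in PEE-PH and 0.20, 0.68 and 0.44 in PEE-TA, and differed by -0.03 (95% interval -0.32 to 0.27; limma adjusted p = 0.983). Beside PEE alone Pgf was higher by 0.44 in PEE-PH (adjusted p = 0.0221) and by 0.47 in PEE-TA (0.0223). Flt1 was at 1.73, 1.58 and 1.46 against 1.07, 1.51 and 1.45, a difference of 0.25 (interval -0.06 to 0.55; adjusted p = 0.736), and its 3 tested probes gave 0.25, 0.17 and -0.04. Flt1 was higher than with PEE alone by 0.40 in PEE-PH (limma adjusted p = 0.0413) and by 0.16 in PEE-TA (0.465). Kdr, the gene of VEGFR-2, differed between the pairs by -0.30 (adjusted p = 0.593) and Vegfa by 0.01 (0.998). Between the pairs none of the 10 genes of the family passed.

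Across the 49 gene lists, 1224 genes were measured and 0 passed the threshold. Rbp7 and G0s2 are in none of these lists, so this count does not cover them. At an adjusted p just above the threshold stood Atf5, of the integrated stress response list. Medians of 43 lists lay between -0.13 and 0.13, and those of 6 lists were lower: interferon response, adipocyte genes, replication-dependent histones, keratin-associated proteins, cell cycle and mitosis, and cholesterol synthesis. No list had a median of 0.15 or more. In 4 lists at least 50% of the members had PEE-PH arrays all below PEE-TA arrays, against 7.39% of all features. These were the histones (23 of 38), the ribosomal proteins (40 of 68), cell cycle and mitosis (27 of 50) and cholesterol synthesis (12 of 24). Members of a list are not independent of each other, and these shares are descriptions of lists chosen with earlier results known.

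Of the 50 cell cycle genes, 49 were lower in PEE-PH, with a median of -0.21 and 0 calls. Their mean level was 0.62, 0.70 and 0.66 on the PEE-PH arrays and 1.03, 0.80 and 0.74 on the PEE-TA arrays. The groups did not overlap, but PEE-TA replicate 1 stood above the rest: the median difference was -0.43 within replicate number 1 and -0.10 within numbers 2 and 3. Without that array it was -0.12. Without replicate number 1, PEE-PH arrays were still all below PEE-TA arrays for 28 of the 50 genes, where 16.5% of all features were lower. Examples, chosen after their values were seen, are Prc1, which bundles microtubules in cytokinesis (-0.30), the ubiquitin ligase Ube2c (-0.28) and the kinesin Kif2c (-0.40), with adjusted p of 0.427, 0.475 and 0.464. Without PEE the median of the list was -0.22 (PH minus TA). Set beside PEE alone, 35 of the 50 were called lower in PEE-PH and 3 in PEE-TA, where 20.6% and 15.2% of all features were called lower; the 2 counts share the PEE arrays, and the direct comparison between the pairs called none.

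The replication-dependent histones, whose transcripts accumulate during DNA synthesis, had a median of -0.25, with 32 of 38 lower. Their mean level was 1.76, 1.82 and 1.84 in PEE-PH and 2.14, 1.95 and 1.94 in PEE-TA, and replicate number 1 again gave the widest gap (-0.41, against -0.18 and -0.14). H2ac4 had the smallest p, at 4.99, 5.09 and 5.08 against 5.71, 5.35 and 5.32, a difference of -0.40 (limma adjusted p = 0.191). Histone genes of one class are near copies of each other, so their probes may share signal and cannot be counted as separate observations. PEE-PH arrays lay all below PEE-TA arrays for 23 of 38 genes as reported and for 20 after quantile normalization. Over all features 7.39% and 5.65% did so. Without PEE the median of the list was -0.06 (PH minus TA). Beside PEE alone, 27 of the 38 were called lower in PEE-PH and 15 in PEE-TA, against 20.6% and 15.2% of all features.

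Genes of cholesterol synthesis formed the evenest of these lists across replicates. Of 24 measured, 23 were lower in PEE-PH, and the median of -0.19 was made of -0.22, -0.14 and -0.15 within replicate numbers 1 to 3. Mean levels were 2.87, 2.88 and 2.77 in PEE-PH and 3.08, 3.04 and 2.92 in PEE-TA. Hsd17b7, a reductase of the sterol pathway, was at 3.21, 3.14 and 2.95 against 3.38, 3.45 and 3.32 (difference -0.28, limma adjusted p = 0.338), and Fdps, which makes farnesyl diphosphate, differed by -0.22 (0.499); both were chosen after their values were seen. PEE-PH arrays lay all below PEE-TA arrays for 12 genes as reported, 11 after quantile normalization and 5 under normexp correction. Over all features the shares were 7.39%, 5.65% and 9.99%. Without PEE the median was -0.11. Beside PEE alone 10 of the 24 were called lower in PEE-PH and 0 in PEE-TA, against the same 20.6% and 15.2% of all features.

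All 68 ribosomal protein genes were lower in PEE-PH, by a median of -0.12, but this depended on scaling. After quantile normalization the median was -0.01. There 5 of 68 were lower and 1 higher without overlap (7.35% and 1.47%, against 5.65% and 8.04% of all features). In the deposited value table the median was 0.00, with 2 lower and 3 higher (2.94% and 4.41%, against 5.45% and 7.89%). Without PEE the median was 0.00 (PH minus TA). Ribosomal protein genes are among the brightest on the array, and of the 4413 brightest features 14.8% had PEE-PH arrays all below PEE-TA, against 4.17% of the 4413 dimmest. Under quantile normalization, normexp and the value table, in that order, the cell cycle medians were -0.21, -0.16 and -0.18. Histone medians were -0.17, -0.18 and -0.17, and cholesterol medians -0.14, -0.14 and -0.12. The shares with PEE-PH arrays all lower were 48%, 42% and 38% for cell cycle and 52.6%, 60.5% and 47.4% for histones. For cholesterol they were 45.8%, 20.8% and 33.3%, against 5.65%, 9.99% and 5.45% of all features.

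The interferon response list had the lowest median, -0.59, but with a wide spread between arrays. Of 49 genes 47 were lower in PEE-PH. Groups did not overlap for 4 lower and 1 higher (8.16% and 2.04%, against 7.39% and 7.29% of all features). The list mean was -0.94, -0.17 and -0.88 in PEE-PH and 0.17, -0.16 and -0.43 in PEE-TA. Taken between arrays of the same number, the median difference was -1.13, 0.00 and -0.42 for numbers 1, 2 and 3. It thus varied widely with the arrays compared, and the numbers were not taken as pairs. Keratin-associated proteins of the shaft behaved likewise: the median of -0.23 over 52 genes was -0.47, -0.23 and 0.17 within the 3 replicate numbers, and none had groups that did not overlap. Hair shaft keratins had a median of -0.12 (12 of 16 lower), made of -0.43, 0.16 and 0.00.

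**Figure D4:**
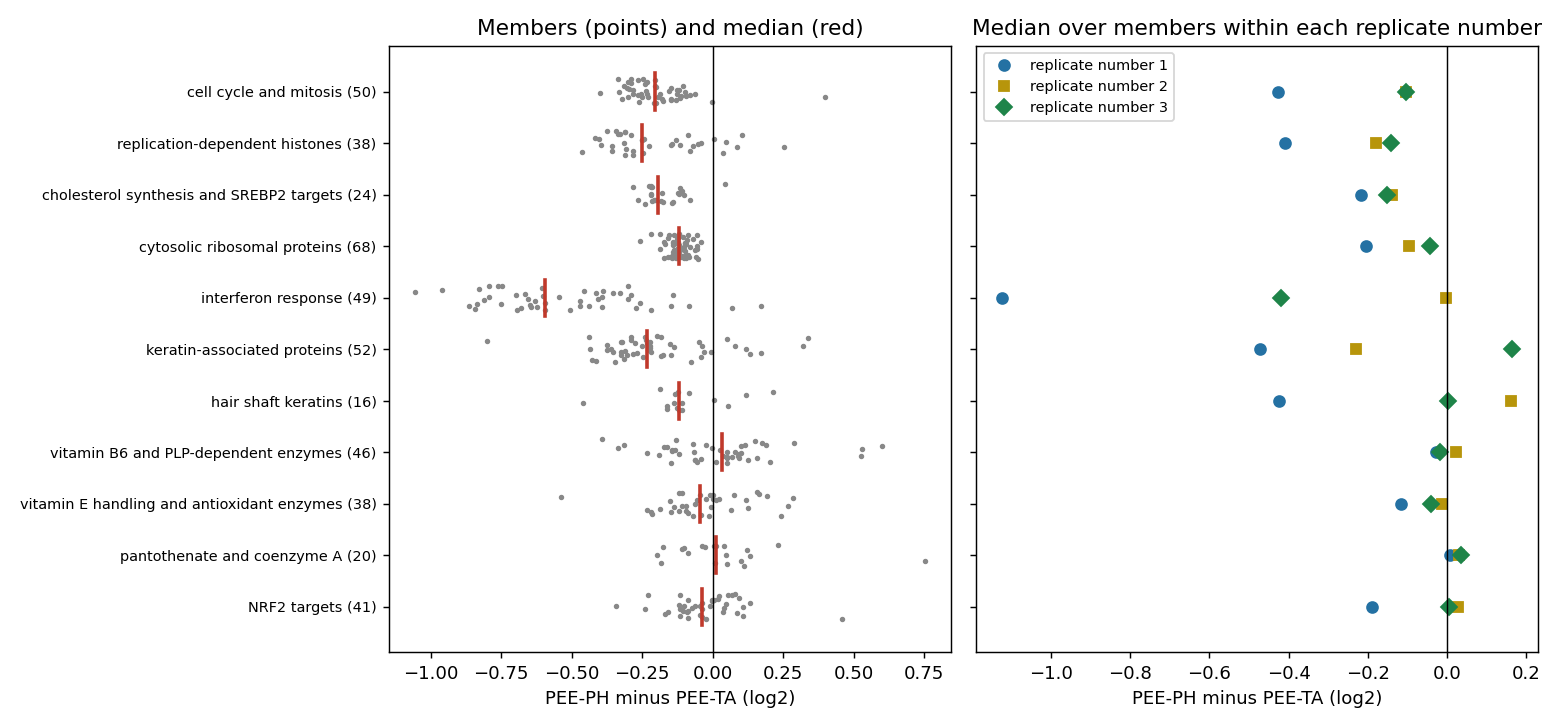
PEE-PH minus PEE-TA (log2) for 11 gene lists, with the number of measured genes in brackets. Left, each point is a gene, spread vertically for legibility, and the red bar is the list median; right, the median within each replicate number. The cell cycle, histone, cholesterol and ribosomal medians are below 0 in all 3 replicate numbers, most in number 1. So are those of the vitamin E list, at -0.115, -0.012 and -0.04 in numbers 1, 2 and 3. Medians of the vitamin B6 and pantothenate lists lie between -0.027 and 0.036.

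The larger differences of both pairs were those from PEE alone, and the pairs are set side by side here without a test between them since the same PEE arrays serve both. PEE-PH differed from PEE in 7384 features, or 33.5% (2836 higher, 4548 lower), and PEE-TA in 5115, or 23.2% (1766 higher, 3349 lower). Before scaling, signal at the 75th percentile was 7.15 to 7.20 (log2) on the PEE arrays. It was 7.64 to 7.76 in PEE-PH and 7.47 to 7.64 in PEE-TA, so array signal differed together with group. The part of array signal in these counts was not tested. The balance of directions depended on scaling: quantile normalization gave 3903 higher and 3369 lower for PEE-PH and 2368 and 2454 for PEE-TA, and normexp correction 3847 and 9732, and 2959 and 8607. Of the 12 ranked genes, 11 were called against PEE in PEE-PH and 5 in PEE-TA. Mal was the exception in PEE-PH. The same PEE-PH and PEE-TA arrays chose these 12 genes by small p, which also favours genes with small errors. The counts 11 and 5 are therefore descriptions only, and cannot be weighed against the shares of all features or assign the differences to PH or TA. For Pde1b, for example, the values were -0.76 (adjusted p = 1.11e-05) and -0.25 (0.0480), and for Fbxo2 0.83 (2.26e-05) and 0.29 (0.0542).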

How the data were processed

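Total RNA of vibrissa follicles was read on one-colour arrays. The deposited files hold scanner intensity per spot, background-subtracted by Agilent Feature Extraction 12.0.3.1 per the submitters' processing notes and the file headers; probe positions are on mm9 per the files. A deposited series table holds log2 values of the same arrays, made by the authors in a way not given in the sources used here; after subtracting probe means, 24 of 24 columns correlated best with their own scan (r at least 0.620), column medians were 3.97 to 4.05, and its scaling and centring are unknown. It served as an alternative.

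From the intensity, log2 minus each array's 75th percentile was taken over 59305 non-control spots; 41 non-uniform spots were left out and none was saturated. Spots of a probe were averaged. Of 56605 probes, 33340 were kept, those marked well above background by the scanner software throughout 1 or more groups, with a value on all 24 arrays. The brightest probe stood for a gene, leaving 22065 genes and transcripts, of which 15525 have a proper symbol. Symbols came through RefSeq accessions (35405 probes matched, 1 symbol changed) and otherwise from the files; older symbols in the gene lists, such as those of histones, were matched through RefSeq synonyms. limma 3.58.1 in R 4.3.3 was fitted to all 24 arrays, 8 groups, with 16 residual and 2.19 prior degrees of freedom and Benjamini-Hochberg adjustment over all features; the threshold was 0.05. The fit was tested on simulated data.

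Named genes were those past the threshold with arrays that do not overlap, up to 12 a direction, or, with fewer than 3, the 6 smallest p, among proper symbols well above background in 1 of the 2 groups; vitamin list members, Pgf and Flt1 were named in any case. The groups, lists and rules were chosen with earlier results of these data known. Alternatives were quantile normalization, normexp with offset 50, the value table, other filters, the mean of probes, a replicate block, a trended and robust prior, the 6 arrays alone, and leaving out arrays; the array signal as covariate was added after seeing the data. Precision is limited by 3 arrays a group. Arrays of 1 replicate number share a scan date in the file headers, and each scan date holds 1 array of each group. Scan date and group are thus not confounded, and that such arrays lie on 1 slide was inferred only. Replicates are independent experiments per the labels.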

Additional observations from a re-analysis of the deposited data

How the results depend on the processing

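The number of features called between PEE-PH and PEE-TA was 3 as reported and 2 to 4 under quantile normalization, normexp, the value table, both other filters, the mean of probes and the array signal as covariate. It was 5 with a trended and robust prior, 0 with the 6 arrays alone, and 0 to 4 when an array or a replicate number was left out. With the replicate number as a replicate block it was 2, since G0s2 no longer passed (adjusted p = 0.0666); the block gave 10 calls for PH against TA, 0 for the interaction, 8034 for PEE-PH against PEE, 5716 for PEE-TA against PEE and 0 list members. Deviations of same-numbered PEE-PH and PEE-TA arrays correlated at -0.18, 0.22 and 0.29, so the numbers were not taken as pairs.

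PH against TA without PEE gave 13 calls as reported, 25 under normexp, 26 in the value table, 8 without a filter, 29 with the mean of probes, 35 with the trended and robust prior, and 0 to 0 without any replicate number. The interaction gave 0 under all 10 alternatives run. PEE-PH against PEE gave 7384, with 13579 under normexp, 15269 without a filter and 3009 to 5822 without a replicate number. PEE-TA against PEE gave 5115, with 11566, 12076 and 1589 to 3029 in the same order. List members called were 0, except 1 (Atf5) under normexp and, in alternatives added to this count after seeing the data, 1 with the trended and robust prior and 1 with the filter on the 2 groups only.

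Of the 3 called features, Rbp7 passed under 14 of 19 alternatives (-1.99 to -1.35), G0s2 under 7 of 19 (-0.81 to -0.57) and A_55_P2544441 under 12 of 19 (0.08 to 1.60), and no sign changed. The settings that lost these calls are given with each gene, and the replicate block that of G0s2 also above; the cause was not tested, except that leaving out arrays or fitting 6 leaves fewer samples. The uncalled Pde1b passed with the trended and robust prior (0.0347). Medians of the cholesterol list ranged from -0.26 to -0.12. Signal over background limits A_55_P2544441 and other dim probes, whose values move with background correction.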

Other observations

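Some genes of skin lipids and secreted factors, picked after their values were seen and therefore given without a test, also had arrays that did not overlap between the pairs. Awat2, which esterifies long-chain alcohols to wax esters in sebaceous and meibomian glands, was at -2.92, -2.66 and -2.74 in PEE-PH and -2.12, -2.20 and -2.34 in PEE-TA, a difference of -0.55, and differed by -0.49 without PEE. Pnpla3, a lipid droplet protein related to the lipase that G0s2 inhibits, was at -2.90, -2.82 and -3.08 against -2.07, -2.39 and -2.50, a difference of -0.61, and by -0.20 without PEE. The whole list of 20 sebaceous and lipid droplet genes, also drawn up after the data were seen, had a median of -0.14, with 2 genes, or 10%, whose arrays were all lower in PEE-PH, near the 7.39% of all features. The secreted C1q/TNF family member C1qtnf3 was at -3.33, -3.43 and -3.03 against -2.66, -2.65 and -2.65 (difference -0.61). Of 11 measured genes in a list of adipokines and this family, made after the data were seen, 8 were lower and 3 higher, with a median of -0.24 and 4 (36.4%) whose arrays were all lower in PEE-PH; C1qtnf1 differed by 0.31, and C1qtnf9 was not well above background in PEE-PH. For C1qtnf3 the 2 pairs lay on either side of PEE alone, differing from it by -0.13 in PEE-PH and 0.48 in PEE-TA.

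Beside Rbp7, the retinoic acid-binding protein Crabp1 differed by -0.27 and the retinol carrier Rbp4 by 0.20. A list of retinoid-binding proteins made after the data were seen, Rbp7 included, had 6 measured genes. Their median was -0.21 (5 lower, 1 higher). The retinoid metabolism list does not hold Rbp7, and its 19 measured genes had a median of 0.06 and no call. Lrat, which esterifies retinol, was at -0.92, -0.78 and -0.81 in PEE-PH and -1.34, -1.21 and -1.14 in PEE-TA, a difference of 0.39, and differed by 0.07 without PEE.

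The gene with the smallest p of the interaction was Epgn, a ligand of the EGF receptor, for which PH minus TA was 0.78 without PEE and 0.06 with it. The interaction of -0.72 did not pass (limma adjusted p = 1). All 13 features called between PH and TA had the same sign with PEE, and 12 of the 13 had a smaller difference there; as they were called in the former comparison, smaller values in the other are no evidence of a change.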
